A study of Homo sapiens with 30 samples.

Results

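Subclone 13 of MDA-MB-231, a human line from breast cancer, was compared between liver metastases and the primary tumours of the same mice, with the samples paired by mouse. Cells were taken by the labels subclone 13, organ and mouse number: 5 libraries of liver metastasis and 5 of primary tumour, 10 of the 30 libraries of the series. In mouse 1 each organ had 3 libraries, 1 from each of 3 sequencing runs, and these were summed, so 3 liver metastases and 3 primary tumours remained. Liver metastases and primary tumours held cells of subclone 13 marked with LeGO lentiviral barcodes and sorted from NOD-SCID-IL2Rγc−/− (NSG) mice 1, 2 and 3, and no drug treatment, age or sex is labelled. Liver metastases had 67.4, 16.5 and 14.1 M counts (M for mega) in mice 1, 2 and 3, and primary tumours had 50.4, 18.7 and 26.1 M counts. Apart from the summed libraries of mouse 1, each mouse had its own sequencing run, so mouse and run cannot be told apart. Lung metastases of subclone 13, and liver metastases and primary tumours of subclone 2, had 3 samples each from the same mice. They served to show where the comparison differs. Together with the lung metastases of subclone 2, they were also part of the 18 samples fitted. They thus entered the gene filter, the scaling, the estimate of the spread and the mouse term of the main comparison.

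MDA-MB-231 is a triple-negative line with a mesenchymal form and has long served as a model of metastasis in mice. NSG mice lack mature T, B and NK cells, so what is measured here is a tumour cell population in a host almost without lymphocytes, from 1 clone of 1 line. The liver is the body's main site of cholesterol and glycogen handling, of xenobiotic metabolism and of the secretion of plasma proteins, and tumour cells that grow there are bathed in blood from the gut.

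The label was checked against marker genes, given here in CPM, the counts per 1 M total counts of a sample. Host cells are mouse cells, while the counts are of human genes on GRCh38. Low values of the liver and host cell lists therefore do not measure how many host cells were present. How reads of mouse origin were counted was not tested. Markers of MDA-MB-231 were present in all 6 samples: 9 markers summed to 11070 to 15010 CPM in liver metastases and 10430 to 13900 CPM in primary tumours. VIM, the mesenchymal filament vimentin, had 5619 to 6799 CPM in liver metastases and 4456 to 7468 CPM in primary tumours. Of the hepatocyte list 13 of 18 genes were in the table, and they summed to 151 to 243 CPM in liver metastases and 130 to 235 CPM in primary tumours. Nearly all of that was SERPINA1, which had 145 to 222 CPM in liver metastases and 123 to 204 CPM in primary tumours. ALB, the albumin gene, had 0, 0.303 and 0 CPM in liver metastases against 0.0794, 0.107 and 0.0765 CPM in primary tumours, and HNF4A, the hepatocyte master regulator, was at 0 in all 6. The endothelial list (7 of 8 genes in the table) summed to 21.5 to 41.8 CPM in liver metastases and 17.9 to 23.7 CPM in primary tumours. The list of stellate cells, fibroblasts and smooth muscle (10 of 10) summed to 23.8 to 31.2 CPM in liver metastases and 35.3 to 42.7 CPM in primary tumours. The cholangiocyte list (5 of 5) summed to 1520 to 2121 CPM in liver metastases and 688 to 1057 CPM in primary tumours, most of it KRT19, while CFTR was at 0 in the 3 liver metastases. The macrophage and leukocyte list (9 of 9) summed to 12.7 to 21.4 CPM in liver metastases and 12.5 to 16.0 CPM in primary tumours. The number of genes detected was 19893, 24035 and 22290 in the liver metastases of mice 1, 2 and 3, against 24937, 25690 and 23934 in the primary tumours. Whether that difference bears on the genes below was not tested.

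Of 17418 genes tested, 318 (1.83%) differed between liver metastasis and primary tumour. Fewer rose than fell: 75 (0.431%) were higher in liver metastases and 243 (1.4%) lower. These shares are the ones to set beside the counts of called members in each list below. Where few members of a list were called, those genes are described, not a change of the list. Genes were called at an adjusted p under 0.05 from the quasi-likelihood test of edgeR with mouse as a term and Benjamini-Hochberg adjustment, fitted on 18 samples that share 1 estimate of the spread. All 75 higher genes were higher in each of the 3 mice, and 242 of the 243 lower genes were lower in each. Of all 17418 genes tested, 5537 went 1 way in all 3 mice. The genes were called on these same mice, so their shared direction was largely set by the choice. Samples of the 2 organs did not overlap for 67 of the 75 and for 218 of the 243, where 13.2% of all genes tested did not overlap (5.22% with liver above tumour and 7.97% with liver below). The changes were mostly moderate: 62 of the higher and 177 of the lower genes moved by more than 1 on the log2 scale, 16 and 47 by more than 2, and 1 and 10 by more than 4. Without the mouse term 67 genes were called, all among the 318, and 55 of the 318 (12 higher, 43 lower) were called in each of 9 fits that left out 1 mouse or 1 sample. The total was 99 without mouse 2, 123 without mouse 3, 140 without the liver metastasis of mouse 2, 187 without that of mouse 3, 181 without the primary tumour of mouse 3 and 183 without that of mouse 2. In bulk samples such as these, fewer cells that express a gene and less RNA per cell cannot be told apart.

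**Figure D1:**
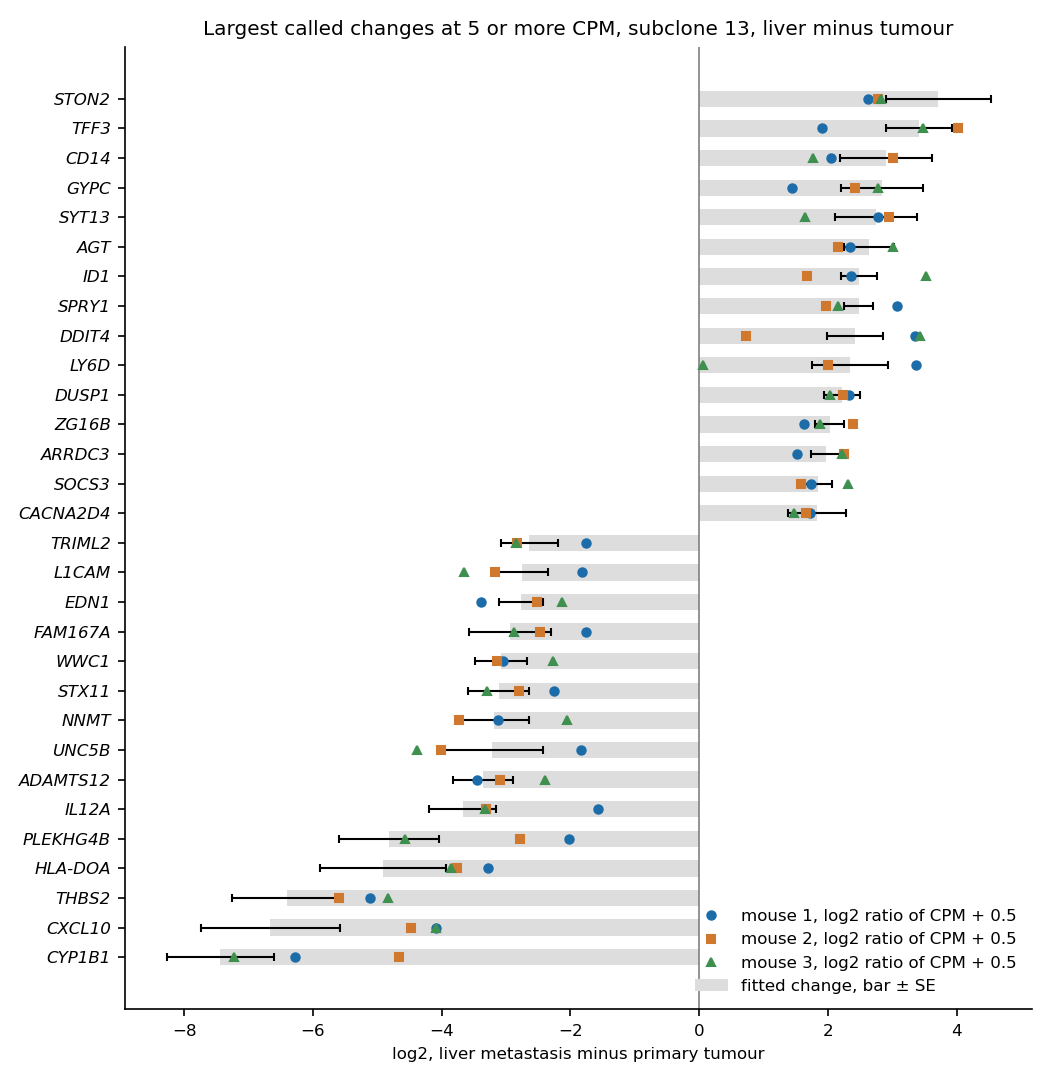
Fitted log2 fold change (grey bars with SE) of the 15 genes each way with the largest called changes among those with 5 or more CPM in the higher organ and 1 direction in all 3 mice, liver metastasis minus primary tumour of subclone 13, with the log2 ratio of CPM + 0.5 in each mouse as symbols. Among these 30, CYP1B1 (−7.44) and CXCL10 (−6.66) had the largest falls and STON2 (3.71) the largest rise, and for LY6D the ratio of mouse 3 was near 0 (0.06). CXCL10 is at 0 in 2 liver metastases, so its place in the order is not fixed.

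A group of interferon-stimulated genes was lower in liver metastases. These genes are switched on when interferons bind their receptors and the factors this activates bind a promoter element called ISRE, and many of them act against viral RNA. Of 34 members tested, 11 fell and none rose. The median log2 fold change of the list was −0.98, against −0.0017 over all genes tested, and 32 of the 34 estimates were below 0. IFIT1, IFIT2 and IFIT3, neighbouring genes on chromosome 10 whose proteins bind viral RNA or each other, fell most among the called members. IFIT1 had 112, 242 and 70.1 CPM in the liver metastases of mice 1, 2 and 3, against 705, 651 and 889 CPM in their primary tumours (here and below CPM are scaled by TMM, the trimmed mean of M values). IFIT3 had 209.5, 301 and 106 CPM in liver metastases and 996, 849 and 1024 CPM in primary tumours. In both genes all liver samples lay below all tumour samples, and mouse 2 had the highest liver level. Log2 fold changes (± SE) were −2.55 ± 0.32 for IFIT1 (adjusted p = 0.0001409, edgeR), −2.36 ± 0.29 for IFIT2 (adjusted p = 0.0001316) and −2.30 ± 0.26 for IFIT3 (adjusted p = 5.453e-05).

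The other called members covered several arms of the antiviral programme. IFIH1, which encodes the RNA sensor MDA5, fell to 28.04, 30.6 and 18 CPM in liver metastases, against 67.2, 91.4 and 130 CPM in primary tumours (log2 fold change −1.81 ± 0.30). ISG15, a ubiquitin-like modifier, had 124, 121 and 103 CPM in liver metastases and 232, 319 and 465 CPM in primary tumours (−1.44 ± 0.26). HERC5, the ligase that attaches ISG15, fell by 1.63 ± 0.29, and the related 2′-5′-oligoadenylate synthetase genes fell too: OASL by 1.70 ± 0.31, OAS1 by 1.03 ± 0.22 and OAS2 by 1.001 ± 0.25. MX2, a dynamin-like GTPase, fell by 1.74 ± 0.40, although its levels overlapped between the organs (3.71, 9.32 and 13.3 CPM in liver metastases, 10.2, 32.7 and 53.4 CPM in primary tumours). IFI44 fell by 0.96 ± 0.20, with overlapping levels as well. MX1, the best known antiviral GTPase of the group, did not pass the test (−1.55 ± 0.47, adjusted p = 0.119) although its 3 liver samples (15.2 to 23.9 CPM) were all below its 3 tumour samples (41.0 to 87.7 CPM). Without the mouse term, 4 members were called (IFIT1, IFIT2, IFIT3 and HERC5), and between 3 and 17 were called across all settings. The adjusted p without the mouse term was 0.834 for MX2 and 0.924 for IFI44, and that of OAS2 was 0.462 without mouse 3 (edgeR).

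Promoters are shown to let the ISRE be read beside these changes. The letters GAAA, any 2 bases and GAAA, on either strand, were searched in the 300 bases around the start (250 before to 50 after) of RefSeq promoters (GRCh38.p14). They occurred in 6 of the 7 called members with a promoter entry, in 18 of 29 tested members (62.1%) and in 1255 of all 35116 promoters (3.57%). Printed below are the 200 bases before the start, in the direction of the gene, with the matches in capitals, of IFIT1 (chr10:89392423-89392622, plus strand), IFIT3 (chr10:89327797-89327996, plus strand), ISG15 (chr1:1013297-1013496, plus strand) and IFIH1 (chr2:162318685-162318884, minus strand).
IFIT1: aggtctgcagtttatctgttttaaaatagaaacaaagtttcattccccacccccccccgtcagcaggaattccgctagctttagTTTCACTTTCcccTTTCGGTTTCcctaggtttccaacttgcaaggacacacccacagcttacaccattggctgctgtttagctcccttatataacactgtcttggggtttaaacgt
IFIT3: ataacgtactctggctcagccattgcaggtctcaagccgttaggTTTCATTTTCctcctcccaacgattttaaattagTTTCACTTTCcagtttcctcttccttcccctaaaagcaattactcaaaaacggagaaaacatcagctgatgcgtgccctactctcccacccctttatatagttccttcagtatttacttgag
ISG15: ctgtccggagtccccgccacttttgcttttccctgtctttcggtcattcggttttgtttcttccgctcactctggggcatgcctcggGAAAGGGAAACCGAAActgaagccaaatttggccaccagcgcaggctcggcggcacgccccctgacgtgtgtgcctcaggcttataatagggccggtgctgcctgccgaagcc
IFIH1: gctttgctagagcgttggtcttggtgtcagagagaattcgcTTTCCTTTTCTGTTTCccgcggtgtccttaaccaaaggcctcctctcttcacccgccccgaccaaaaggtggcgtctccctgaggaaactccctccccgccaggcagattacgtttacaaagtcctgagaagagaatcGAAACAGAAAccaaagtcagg
IFIT1, IFIT3 and ISG15 each had 2 matches in this stretch and IFIH1 had 3, and the matches of ISG15 share bases, as do 2 of those of IFIH1. The promoter of OAS1 held no such letters in this window. Matches are a description of the sequence, and binding was not measured.

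Of 15 tested interferon receptors, kinases and transcription factors, 1 fell (6.67%, against 1.4% of all genes tested). IFNGR2, a chain of the interferon gamma receptor, had 61.9, 59.8 and 45.2 CPM in liver metastases and 102, 106 and 94.4 CPM in primary tumours (−0.86 ± 0.19, adjusted p = 0.0219, edgeR). It was not called without the mouse term (adjusted p = 0.104, edgeR) or without mouse 3 (adjusted p = 0.169, edgeR). IFNAR1, a chain of the type I interferon receptor, had 71.8, 54.2 and 38.0 CPM against 90.7, 53.0 and 50.4 CPM. Its levels overlapped between organs and did not pass. Genes of MHC class I and peptide loading, which interferons also raise, gave 0 calls in 16 members by edgeR, with a median of −0.17 and a range from −0.43 to 0.34 (1 at an unadjusted p under 0.05, and 0 calls by DESeq2). By contrast CXCL10, an interferon-induced chemokine that draws lymphocytes, was nearly silent in liver metastases, with 0, 0.605 and 0 CPM against 7.99, 24.1 and 7.998 CPM in primary tumours (−6.66 ± 1.08, adjusted p = 0.001783; 0.104 without the mouse term). With 2 liver samples at 0 the size of this change is poorly fixed: it was −10.89 without mouse 2 or without its liver metastasis. HLA-DOA, a chain of the class II chaperone HLA-DO, had 0.407, 0.484 and 0.328 CPM in liver metastases and 8.35, 12.9 and 11.5 CPM in primary tumours (−4.91 ± 0.98, adjusted p = 0.0125; 0.0932 without the mouse term and up to 0.204 when 1 sample was left out).

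Several components of NF-kB signalling were lower as well. NF-kB is a family of 5 dimer-forming subunits that inflammatory receptors release from their inhibitors, and its targets include its own subunits and inhibitors as well as cytokines. Of the 5 subunit genes 3 fell, and their median log2 fold change was −1.02. NFKB1 had 49.6, 45.2 and 49.5 CPM in the 3 liver metastases, against 152, 181 and 168 CPM in the primary tumours, a tight and non-overlapping difference (−1.79 ± 0.18, adjusted p = 2.665e-05, edgeR). RELB, the subunit of the alternative pathway, had 18.4, 16.6 and 31.0 CPM in liver metastases and 52.2, 92.4 and 84.0 CPM in primary tumours (−1.82 ± 0.21, adjusted p = 7.961e-05). NFKB2 fell by 1.02 ± 0.25 with overlapping levels, and its call was lost without the mouse term (adjusted p = 0.550) and without mouse 2 (adjusted p = 0.4003). RELA, the main activating subunit, had 168, 80.3 and 130 CPM in liver metastases and 135, 135 and 154 CPM in primary tumours, and did not pass.

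Of 16 feedback inhibitors and adaptors of NF-kB, 5 fell and none rose (median −0.85). IRAK2, a kinase of the interleukin-1 and Toll-like receptor complex, had 36.5, 27.2 and 28.4 CPM in liver metastases against 86.6, 122 and 107 CPM in primary tumours (−1.77 ± 0.24). MAP3K8, a kinase that links NF-kB to ERK, had 1.97, 9.07 and 17.5 CPM in liver metastases and 26.5, 51.9 and 43.5 CPM in primary tumours (−2.45 ± 0.38). Both were called in each of the 9 fits that left out a mouse or sample, MAP3K8 with an adjusted p = 0.329 without the mouse term. BIRC3, an inhibitor of cell death, had 22.7, 63.8 and 81.7 CPM in liver metastases and 348, 513 and 129 CPM in primary tumours, so mouse 3 showed the smallest gap (−2.57 ± 0.56; adjusted p = 0.0193, 0.151 without the mouse term and 0.285 without mouse 2). NFKBIZ fell by 1.42 ± 0.30 and TNIP1, a partner of the inhibitor TNFAIP3, by 0.87 ± 0.21; without the mouse term their adjusted p were 0.704 and 0.443. TNFAIP3 itself had 53.6, 62.4 and 133 CPM in liver metastases and 356, 276 and 113 CPM in primary tumours. NFKBIA had 382, 397 and 734 CPM against 868, 1182 and 324 CPM. In mouse 3 both were higher in the liver metastasis, and neither passed the test.

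Cytokine and chemokine genes had the lowest median of the lists, −1.65 over 20 tested members, but varied widely between mice, and 3 of them fell. IL12A, the p35 chain of interleukin-12, had 0.441, 0.665 and 0.394 CPM in liver metastases against 2.29, 11.0 and 8.44 CPM in primary tumours (−3.67 ± 0.52, adjusted p = 0.0005544, edgeR; 0.0872 without mouse 2). CXCL8, the neutrophil chemokine interleukin-8, had 39.9, 88.9 and 111 CPM in liver metastases and 484, 383 and 144 CPM in primary tumours, again with the smallest gap in mouse 3 (−2.14 ± 0.51; adjusted p = 0.0327, 0.129 without the mouse term and 0.275 without mouse 1). IL6 had 62.1, 74.2 and 135 CPM in liver metastases and 134, 301 and 234 CPM in primary tumours, where the organs overlapped at their edges (−1.28 ± 0.31; adjusted p = 0.0351, 0.743 without the mouse term and 0.274 without mouse 2). TNF had 0.0678, 0.484 and 0.920 CPM in liver metastases and 6.88, 15.7 and 0.836 CPM in primary tumours. CXCL1 had 3.71, 11.0 and 28.7 CPM against 102, 217 and 29.8 CPM. For both the level of mouse 3 was nearly the same in the 2 organs, and neither passed (adjusted p = 0.178 and 0.0685). Between 0 and 13 members of this list were called across all settings.

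Of 17 tested TNF, interleukin-1 and Toll-like receptors, 2 fell and the median was 0.09. TNFRSF10B, a death receptor for TRAIL, had 180, 230.5 and 281 CPM in liver metastases and 355, 481 and 400.0 CPM in primary tumours (−0.85 ± 0.19, adjusted p = 0.0248; 0.410 without the mouse term). IL1RAP, the shared chain of interleukin-1 receptors, fell by 1.11 ± 0.23 (adjusted p = 0.0125; 0.342 without the mouse term). TNFRSF1A, the main TNF receptor, had 353.5, 190.4 and 222 CPM in liver metastases against 216, 223 and 212 CPM in primary tumours. CD14, the lipopolysaccharide co-receptor of TLR4, was higher in liver metastases, with 6.27, 10.1 and 6.37 CPM against 1.14, 0.820 and 1.51 CPM in primary tumours (2.90 ± 0.71, adjusted p = 0.0410; 0.346 without the mouse term and up to 0.478 without mouse 2). CD14 is also a macrophage marker. The pan-leukocyte gene PTPRC had 0, 0.243 and 0.779 CPM and the macrophage gene CD68 0.341, 0.425 and 0.354 CPM of total counts in the same liver metastases. ADGRE1 and MARCO were at 0 in all 6 samples. CSF1R had 12.1, 7.76 and 3.83 CPM in liver metastases against 10.3, 12.2 and 12.7 CPM in primary tumours, and LYZ 3.50, 2.06 and 0.850 CPM against 0.814, 1.23 and 1.26 CPM. The part of macrophages in the CD14 value was not tested.

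Promoters of the NF-kB lists are shown for the same reason, with the letters GGG, any 5 bases and CC searched on both strands. All 10 called members with an entry held a match in the 300 bases, as did 28 of 32 tested members (87.5%), but so did 58.7% of all 35116 promoters, so the letters are common. The 200 bases before the start of NFKB1 (chr4:102501159-102501358, plus strand) and BIRC3 (chr11:102317284-102317483, plus strand) held 3 and 2 matches, of which 2 in NFKB1 overlap.
NFKB1: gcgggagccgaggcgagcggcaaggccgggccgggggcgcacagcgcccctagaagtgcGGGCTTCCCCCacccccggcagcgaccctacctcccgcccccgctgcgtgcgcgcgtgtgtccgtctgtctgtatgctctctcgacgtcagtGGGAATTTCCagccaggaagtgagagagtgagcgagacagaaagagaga
BIRC3: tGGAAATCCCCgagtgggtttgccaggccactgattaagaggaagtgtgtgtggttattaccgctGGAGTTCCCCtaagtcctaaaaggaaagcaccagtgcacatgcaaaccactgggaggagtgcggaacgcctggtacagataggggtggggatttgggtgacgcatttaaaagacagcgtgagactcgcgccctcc
Capitals mark the matches, and the sequences are those of RefSeq on GRCh38.p14.

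**Figure D2:**
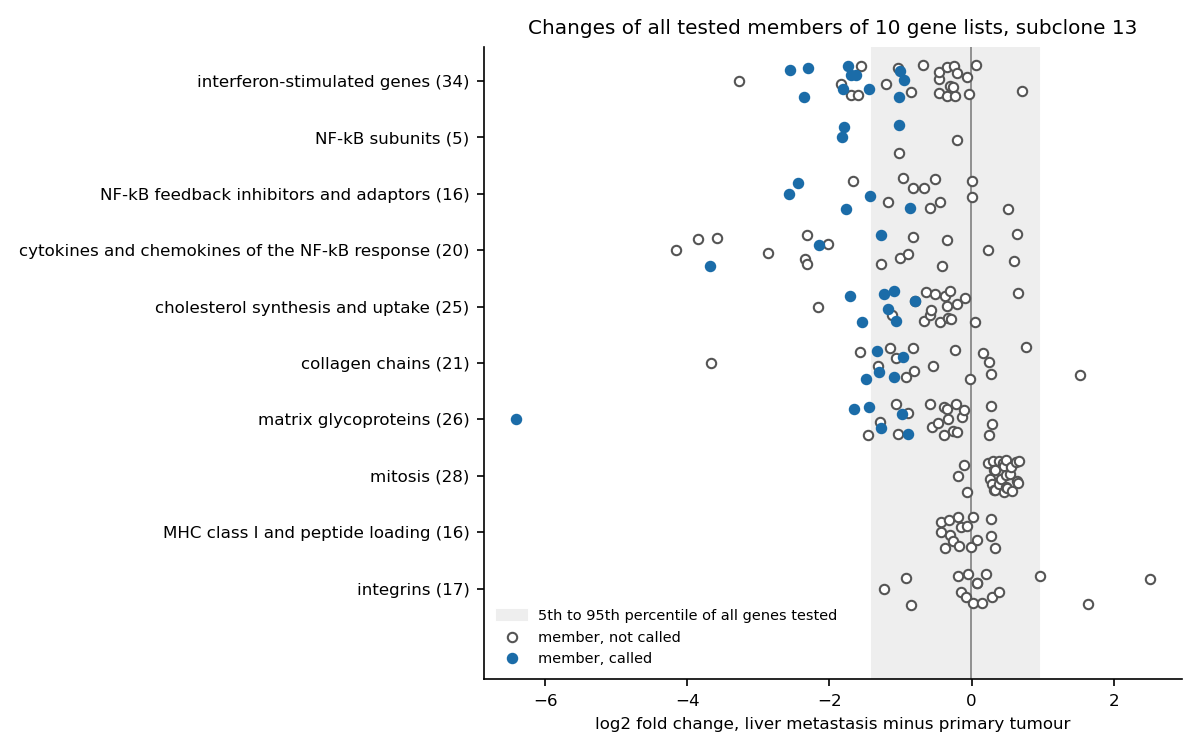
Log2 fold change, liver metastasis minus primary tumour, of every tested member of 10 gene lists (dots, filled where called at an adjusted p under 0.05), over the 5th to 95th percentile of all 17418 genes tested (grey, −1.41 to 0.95). Interferon-stimulated genes, NF-kB genes and cholesterol genes lie mostly left of 0, and mitosis genes mostly right of it with no member called.

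Several feedback inhibitors of growth factor and cytokine signalling rose in liver metastases. SPRY1, which dampens signals from receptor tyrosine kinases to ERK, had 160.2, 85.4 and 108 CPM in liver metastases against 18.5, 21.4 and 24.0 CPM in primary tumours (2.48 ± 0.23, adjusted p = 1.942e-05, edgeR). DUSP5, a phosphatase of nuclear ERK, had 1598, 786 and 818 CPM in liver metastases and 383, 308 and 338 CPM in primary tumours (1.57 ± 0.25, adjusted p = 0.001406; 0.0655 without the mouse term). These were the 2 called members of 14 tested ERK feedback genes, and the list's median was 0.03. SPRY2 and SPRY4, close relatives of SPRY1, did not pass: SPRY2 had 192, 160.5 and 131 CPM in liver metastases against 170.5, 124 and 160 CPM in primary tumours. Of 23 immediate early genes 2 rose and 1 fell (median −0.03), where 0.431% of all genes tested rose and 1.4% fell. DUSP1, a phosphatase of JNK and p38, had 2105, 835 and 1216 CPM in liver metastases and 419, 176 and 297 CPM in primary tumours, a shift of nearly the same size in each mouse (2.22 ± 0.28, adjusted p = 0.0001418). ZFP36, which destabilises cytokine mRNAs, had 596.5, 251.5 and 697 CPM in liver metastases and 181, 82.3 and 163 CPM in primary tumours (1.80 ± 0.34, adjusted p = 0.005873; 0.170 without the mouse term). KLF4, a zinc finger transcription factor, fell by 1.05 ± 0.23 (adjusted p = 0.0192; 0.614 without the mouse term).

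SOCS3, the feedback inhibitor of STAT3 signalling, rose to 559, 323.5 and 750.5 CPM in liver metastases, against 168, 108 and 151 CPM in primary tumours (1.85 ± 0.21, adjusted p = 5.453e-05, edgeR; 0.0772 without the mouse term). Within the list of the interleukin-6 family and STAT3 feedback, IL6 and CLCF1 fell (CLCF1 by 0.88 ± 0.21, adjusted p = 0.0372; 0.891 without the mouse term), and the median of 16 members was −0.57. The receptor gene IL6ST had 297, 326 and 243 CPM in liver metastases and 384, 282 and 147 CPM in primary tumours, with overlap. ID1, an inhibitor of basic helix-loop-helix factors and a target of bone morphogenetic proteins, was well separated between the organs. It had 287, 207 and 390 CPM in liver metastases against 55.6, 64.8 and 33.4 CPM in primary tumours (2.49 ± 0.28, adjusted p = 5.453e-05). Its relative ID3 had 15.4, 16.2 and 34.2 CPM in liver metastases and 10.8, 10.1 and 10.9 CPM in primary tumours without passing (adjusted p = 0.0579). BAMBI, a decoy receptor that dampens BMP and TGF-beta signals, fell to 28.4, 31.3 and 18.9 CPM in liver metastases, against 60.3, 109 and 146 CPM in primary tumours (−1.93 ± 0.25, adjusted p = 0.000167). SMAD7 had 9.52, 8.35 and 19.0 CPM in liver metastases and 40.5, 14.96 and 31.3 CPM in primary tumours. SMAD6 had 22.3, 10.8 and 20.1 CPM against 9.75, 10.5 and 14.5 CPM. Neither passed. Of 5 alpha-arrestins, ARRDC3, an adaptor in receptor endocytosis, rose to 469, 379 and 348.5 CPM in liver metastases, against 164, 79.2 and 74.1 CPM in primary tumours (1.97 ± 0.23, adjusted p = 7.961e-05). ARRDC2 fell by 1.03 ± 0.23 (adjusted p = 0.0216; 0.502 without the mouse term). SPRY1, DUSP5, DUSP1, SOCS3, ID1, BAMBI and ARRDC3 were called in all 9 fits that left out a mouse or sample.

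**Figure D3:**
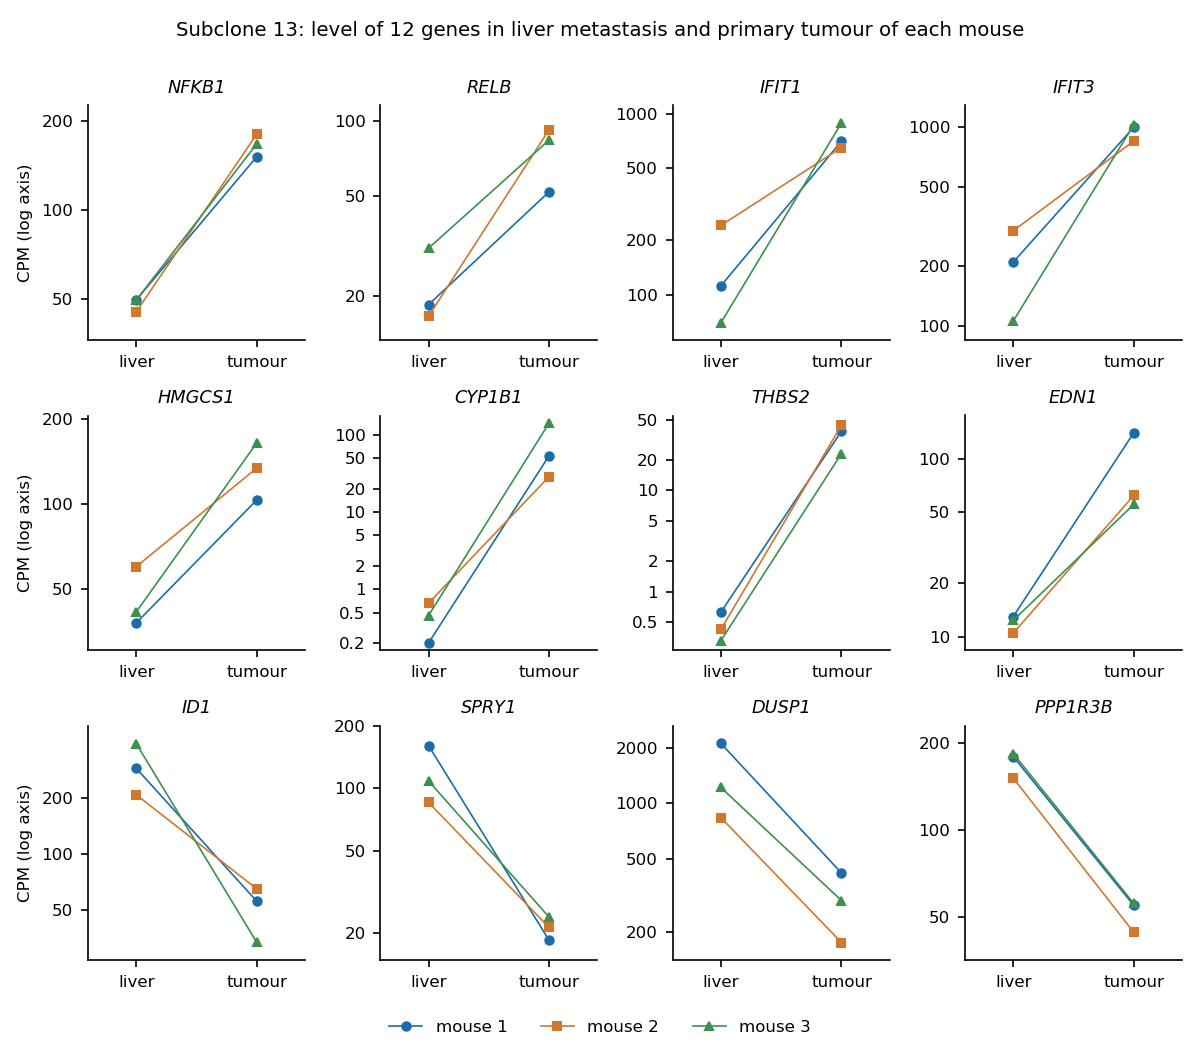
CPM (log axis) of 12 genes in the liver metastasis (left) and primary tumour (right) of each mouse, with lines joining the samples of 1 mouse. The 12 were picked from genes called in this comparison. The 2 organs do not overlap in any of them, which follows largely from that choice (13.2% of all genes tested do not overlap). NFKB1 has 45.2 to 49.6 CPM in liver metastases and 152 to 181 CPM in primary tumours. SPRY1 has 85.4 to 160.2 CPM in liver metastases and 18.5 to 24.0 CPM in primary tumours.

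Several genes of cholesterol synthesis and uptake were lower. This pathway makes sterols from acetyl-CoA and is switched on as a unit by the factor SREBP2 when sterols are short. Of 25 tested members 7 fell, none rose, and 23 estimates were below 0 (median −0.59). HMGCS1, which makes the precursor HMG-CoA, had 38.0, 60 and 41.5 CPM in liver metastases and 103, 134 and 164 CPM in primary tumours (−1.54 ± 0.23, adjusted p = 0.0007999, edgeR). INSIG1, which holds SREBP2 in the endoplasmic reticulum, fell by 1.70 ± 0.29, the isomerase gene IDI1 by 1.06 ± 0.20, the squalene epoxidase gene SQLE by 1.24 ± 0.19 and the sterol oxidase gene MSMO1 by 0.79 ± 0.18. SREBF2, which encodes SREBP2, had 157.5, 106 and 114 CPM in liver metastases and 185, 204 and 211 CPM in primary tumours. It was lower in each mouse but did not pass (adjusted p = 0.0568). Without the mouse term 4 members were called, SQLE and INSIG1 among them, and MSMO1 had an adjusted p = 0.666 without it and 0.447 without mouse 3 (edgeR).

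In 17 genes of fatty acid synthesis and desaturation edgeR made 0 calls, with a median of −0.15, with 3 at an unadjusted p under 0.05. DESeq2 found 2 of them lower. FASN, the fatty acid synthase, had 384, 130.2 and 273.5 CPM in liver metastases against 292.5, 286 and 332 CPM in primary tumours. SCD had 268, 234 and 180 CPM against 249.4, 215 and 173 CPM. Among 18 lipid storage genes and PPAR targets 1 rose and 1 fell. HILPDA, a lipid droplet protein that blocks lipolysis, had 20.1, 31.3 and 42.9 CPM in liver metastases and 11.9, 15.8 and 7.60 CPM in primary tumours (1.45 ± 0.31, adjusted p = 0.0174; 0.420 without mouse 3). MFSD2A, a transporter of lysophosphatidylcholine, fell to 4.44, 4.42 and 6.63 CPM in liver metastases, against 19.3, 30.5 and 26.8 CPM in primary tumours (−2.33 ± 0.37, adjusted p = 0.001406). ABCG1, which exports sterols and is a target of the sterol receptor LXR, had 3.30, 2.66 and 1.77 CPM in liver metastases against 0.237, 0.0512 and 0 CPM in primary tumours (4.52 ± 1.14, adjusted p = 0.0464; 0.155 without the mouse term and 0.538 without mouse 2). It was the called member of 8 LXR genes, and ABCA1, the related exporter, had 21.0, 32.0 and 36.5 CPM in liver metastases and 10.4, 10.6 and 13.0 CPM in primary tumours without passing (adjusted p = 0.245).

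PPP1R3B, which directs protein phosphatase 1 to glycogen and so activates glycogen synthase, was higher in liver metastases. PPP1R3B stood at 179, 151 and 184 CPM in liver metastases against 54.7, 44.2 and 55.6 CPM in primary tumours (1.74 ± 0.18, adjusted p = 3.279e-05, edgeR; 0.001792 without the mouse term). The log2 ratios of the 3 mice lay between 1.70 and 1.76. Of 23 glycogen genes it and PYGB rose and none fell (median 0.13). PYGB, a glycogen phosphorylase, had 1901, 1391 and 1216 CPM in liver metastases and 797.5, 817 and 851 CPM in primary tumours (0.85 ± 0.19, adjusted p = 0.0246; 0.166 without the mouse term). GYS1, the synthase itself, had 59.1, 40.6 and 55.6 CPM in liver metastases and 42.5, 39.8 and 52.8 CPM in primary tumours, which overlapped. Glucose uptake and breakdown showed 1 change in 22 genes (4.55%, against 1.83% of all genes tested). SLC2A3, the glucose transporter GLUT3, had 863, 811 and 897 CPM in liver metastases and 237, 242 and 421 CPM in primary tumours (1.57 ± 0.30). Its adjusted p was 0.007642 by edgeR, and 0.131 without the mouse term. LDHA and PGK1 did not pass, and the median of the glycolysis list was 0.01.

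Hypoxia and glucocorticoid lists held genes that rose and genes that fell. Among 20 hypoxia genes 3 rose (HILPDA, DDIT4 and BHLHE40) and 1 fell (LOX), with a median of 0.02. DDIT4, an inhibitor of mTORC1 that both low oxygen and glucocorticoids induce, had 489, 164.5 and 399 CPM in liver metastases and 47.6, 99.0 and 36.4 CPM in primary tumours, with a smaller gap in mouse 2 (2.42 ± 0.44, adjusted p = 0.004511, edgeR; 0.176 without mouse 3). LOX, which crosslinks collagen, fell to 46.6, 51.2 and 55.4 CPM in liver metastases, against 208, 108 and 161 CPM in primary tumours (−1.61 ± 0.22, adjusted p = 0.0004122). CA9 and VEGFA, standard hypoxia markers, did not pass: CA9 had 13.8, 17.7 and 38.8 CPM in liver metastases and 12.1, 11.1 and 26.5 CPM in primary tumours. Of 19 glucocorticoid-induced genes DUSP1, DDIT4 and FKBP5 rose and 1 gene fell (median 0.37). FKBP5, a cochaperone of the receptor, rose by 0.78 ± 0.18 with overlapping levels and was called in 1 of the 9 fits that left out a mouse or sample (adjusted p up to 0.702, without mouse 2). TSC22D3, the glucocorticoid-induced leucine zipper, had 158, 127 and 271 CPM in liver metastases against 220.4, 126 and 517 CPM in primary tumours.

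CYP1B1 had the largest fall of the named genes. The gene, on chromosome 2, encodes a cytochrome P450 that oxidises oestrogens, retinoids and polycyclic compounds and is a target of the aryl hydrocarbon receptor. It had 0.203, 0.665 and 0.460 CPM in liver metastases and 54.0, 28.9 and 143 CPM in primary tumours (−7.44 ± 0.83, adjusted p = 5.453e-05, edgeR; 0.001374 without the mouse term). It was the called member of 10 genes of the receptor's pathway. AHR, the receptor, had 95.2, 176 and 165 CPM in liver metastases and 213, 175 and 195 CPM in primary tumours, and its targets TIPARP and NQO1 did not pass. CYP1A1 was at 0 in the 3 liver metastases and had 0.0647, 0.0512 and 0.915 CPM in primary tumours. Of 17 retinoid genes 1 fell (5.88%, against 1.4% of all genes tested). CYP26B1, which degrades retinoic acid, had 9.59, 5.26 and 6.63 CPM in liver metastases against 13.6, 16.5 and 21.5 CPM in primary tumours (−1.24 ± 0.29). Its adjusted p was 0.0274 by edgeR, and 0.439 without mouse 2.

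Extracellular matrix genes fell in several classes. Of 21 collagen chains 5 fell and none rose (median −0.92), of 26 matrix glycoproteins 6 fell (median −0.51) and of 26 matrix proteases and inhibitors 5 fell (median −0.45). COL6A3, a chain of microfibrillar collagen VI, had 292, 272 and 316 CPM in liver metastases and 687, 810.1 and 999 CPM in primary tumours (−1.49 ± 0.26, adjusted p = 0.00367, edgeR). COL4A1, a basement membrane chain, fell by 1.31 ± 0.27, COL12A1 by 1.33 ± 0.24, COL5A1 by 1.09 ± 0.23 and COL7A1 by 0.96 ± 0.23; of the 5, COL6A3 alone was called without the mouse term and in all fits that left out a mouse or sample. COL1A1 had 23.3, 16.4 and 65.2 CPM in liver metastases and 107, 27.7 and 53.5 CPM in primary tumours, where mouse 3 went the other way, and did not pass.

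THBS2, the matricellular protein thrombospondin 2, was nearly silent in liver metastases, with 0.627, 0.423 and 0.328 CPM against 38.4, 43.9 and 23.1 CPM in primary tumours (−6.41 ± 0.85, adjusted p = 0.0002554, edgeR). TGFBI, an adhesion protein induced by TGF-beta, had 649, 343 and 334 CPM in liver metastases and 1100, 1313 and 1605 CPM in primary tumours (−1.66 ± 0.32, adjusted p = 0.007642; 0.0797 without the mouse term). TNC, tenascin C, had 345, 248.9 and 302 CPM in liver metastases and 606, 482 and 571 CPM in primary tumours (−0.89 ± 0.17), and the laminin chain LAMC1 fell by 0.97 ± 0.18. CCDC80 fell by 1.44 ± 0.24. FN1, fibronectin, the most abundant of the list, had 4746, 4941 and 7285 CPM in liver metastases against 8328, 6815 and 9607 CPM in primary tumours and did not pass (adjusted p = 0.694). Among proteases, ADAMTS12 fell to 0.983, 2.00 and 3.15 CPM in liver metastases, against 15.7, 20.8 and 18.7 CPM in primary tumours (−3.36 ± 0.46, adjusted p = 0.0003955). ADAMTS6 fell by 2.30 ± 0.44 and MMP14, the membrane collagenase, by 0.78 ± 0.19. PLAUR, the urokinase receptor, fell by 1.06 ± 0.23. Without the mouse term THBS2, ADAMTS12 and ADAMTS6 of these genes were called. The list of stellate cells and fibroblasts had 0 of 7 tested members called. Its lower sum in liver metastases was mostly PDGFRB, with 19.0, 15.7 and 23.9 CPM of total counts in liver metastases and 25.8, 35.9 and 35.3 CPM in primary tumours. RGS5 (0.60) and MYH11 (0.31) had log2 fold changes above 0. The part of such cells in the matrix values was not tested.

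Adhesion and guidance molecules, secreted peptides and Hippo adaptors had single members with large falls. L1CAM, a neural adhesion molecule, had 27.0, 11.3 and 10.1 CPM in liver metastases and 96.5, 106 and 133 CPM in primary tumours (−2.75 ± 0.41, adjusted p = 0.0008184, edgeR). CD44, the hyaluronan receptor that marks this line, had 470, 224 and 183 CPM in liver metastases against 921, 595 and 878 CPM in primary tumours (−1.52 ± 0.24, adjusted p = 0.001193; 0.173 without the mouse term). They were the called members of 15 adhesion genes, whereas 17 integrins gave 0 calls by edgeR (3 at an unadjusted p under 0.05, and 1 higher and 1 lower by DESeq2). EDN1, the vasoconstrictor endothelin-1, had 13.0, 10.5 and 12.4 CPM in liver metastases and 141, 62.4 and 55.5 CPM in primary tumours (−2.77 ± 0.34, adjusted p = 0.0001409). Its receptor gene EDNRA fell with it, to 23.9, 22.1 and 20.0 CPM in liver metastases, against 61.2, 61.0 and 53.3 CPM in primary tumours (−1.41 ± 0.28, adjusted p = 0.0111; 0.0521 without the mouse term). PTGER4, a receptor for prostaglandin E2, had 17.5, 24.9 and 14.97 CPM in liver metastases and 70.2, 71.7 and 74.9 CPM in primary tumours (−1.95 ± 0.21, adjusted p = 3.279e-05).

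WWC1, the upstream Hippo adaptor KIBRA, had 1.95, 2.42 and 3.22 CPM in liver metastases against 19.8, 25.2 and 17.5 CPM in primary tumours (−3.08 ± 0.40, adjusted p = 0.0002368, edgeR). Of 20 Hippo genes it and the kinase gene LATS2 fell (LATS2 by 0.75 ± 0.18; adjusted p = 0.166 without the mouse term), and of 19 targets of YAP and TAZ LATS2 and FJX1 fell. YAP1 had 269, 311 and 243 CPM in liver metastases and 261, 262 and 226 CPM in primary tumours. The angiogenic factors VEGFC (−1.05 ± 0.19) and PDGFA (−1.69 ± 0.31) and the co-receptor NRP2 (−0.86 ± 0.18) fell among 18, of which VEGFC was called without the mouse term. HBEGF, an EGF receptor ligand, fell by 0.87 ± 0.20, but AREG, EREG and EGFR did not pass. IGFBP3, which binds insulin-like growth factors, had 256, 174 and 145 CPM in liver metastases and 601, 674 and 702 CPM in primary tumours (−1.80 ± 0.29, adjusted p = 0.001873). IGFBP6 rose by 1.14 ± 0.27 (adjusted p = 0.0330; 0.163 without the mouse term). Heat shock genes fell in 4 of 17. HSPA1A had 124, 71.9 and 53.2 CPM in liver metastases and 484, 225 and 145 CPM in primary tumours. DNAJB4 fell by 1.51 ± 0.24 and HSPB8 by 2.06 ± 0.44. HSPA1A and HSPA1B on chromosome 6 are near-identical copies, so how their reads were split between them is uncertain.

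Several of the largest rises belong to no pathway list or to small ones. TFF3, a trefoil peptide of mucous epithelia, had 8.37, 21.7 and 15.2 CPM in liver metastases against 1.86, 0.871 and 0.915 CPM in primary tumours (3.41 ± 0.51, adjusted p = 0.0008946, edgeR; 0.0177 without the mouse term). MUC16, a membrane mucin, had 0.864, 1.63 and 4.66 CPM in liver metastases and 0.151, 0.256 and 0.279 CPM in primary tumours (3.11 ± 0.78, adjusted p = 0.0456; 0.479 without mouse 3). KRT19, an epithelial keratin, rose to 1980, 1468 and 1169 CPM in liver metastases, against 935, 503 and 747 CPM in primary tumours (1.11 ± 0.21, adjusted p = 0.006813; 0.369 without the mouse term). KRT19 also marks cholangiocytes. The list's SOX9 had 355, 202 and 216 CPM of total counts in liver metastases and 171, 146 and 131 CPM in primary tumours, and EPCAM had 32.3, 40.0 and 43.6 CPM against 26.6, 17.9 and 22.6 CPM. Neither passed the test, and the part of such cells in the KRT19 value was not tested. AGT encodes angiotensinogen, a plasma protein made mainly by hepatocytes. AGT had 17.8, 17.7 and 42.8 CPM in liver metastases and 3.13, 3.59 and 4.89 CPM in primary tumours (2.64 ± 0.39, adjusted p = 0.000887; 0.0782 without the mouse term and 0.0822 without mouse 3). Of the hepatocyte list, ALB and HNF4A were at or near 0 as given above. CYP2E1 had 0.860, 2.49 and 8.93 CPM of total counts in liver metastases and 0.576, 3.74 and 5.55 CPM in primary tumours, and ASGR1 had 0.964, 1.27 and 4.04 CPM against 0.357, 1.28 and 2.22 CPM. Both were highest in mouse 3 among the liver metastases and also among the primary tumours, as was AGT, and neither passed. APOA1, of the same list, went the other way without passing (log2 fold change −1.56). It had 4.03, 3.52 and 7.30 CPM of total counts in liver metastases and 6.59, 14.9 and 22.9 CPM in primary tumours. The part of hepatocytes in the AGT value was not tested. ZG16B, a secreted lectin-like protein, had 21.4, 44.0 and 40.2 CPM in liver metastases and 6.58, 7.99 and 10.6 CPM in primary tumours (2.03 ± 0.23, adjusted p = 5.453e-05). STON2, an endocytic adaptor, had 6.05, 4.36 and 7.82 CPM in liver metastases against 0.561, 0.205 and 0.677 CPM in primary tumours (3.71 ± 0.82, adjusted p = 0.0198; 0.122 without the mouse term and called in 1 of the 9 fits that left out a mouse or sample).

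GYPC, a membrane sialoglycoprotein, SYT13, a synaptotagmin, LY6D, a small surface protein, and CACNA2D4, a calcium channel subunit, rose by 2.84 ± 0.64, 2.75 ± 0.64, 2.34 ± 0.60 and 1.83 ± 0.45, and their calls were lost without the mouse term (adjusted p = 0.0905, 0.155, 0.780 and 0.987, edgeR). LY6D had 16.7, 19.4 and 7.42 CPM in liver metastases and 1.17, 4.46 and 7.12 CPM in primary tumours, so mouse 3 showed almost no gap. Among the falls outside the lists, NNMT, which methylates nicotinamide, had 3.78, 3.21 and 8.67 CPM in liver metastases and 36.9, 48.7 and 37.5 CPM in primary tumours (−3.19 ± 0.54; adjusted p = 0.002503, 0.129 without the mouse term and 0.154 without mouse 2). STX11, a syntaxin of vesicle fusion, had 2.17, 1.57 and 1.12 CPM in liver metastases and 12.3, 13.9 and 15.3 CPM in primary tumours (−3.11 ± 0.48, adjusted p = 0.00114). UNC5B, a netrin receptor, fell by 3.21 ± 0.79, PLEKHG4B, a guanine nucleotide exchange factor, by 4.82 ± 0.78, FAM167A by 2.94 ± 0.64 and TRIML2 by 2.64 ± 0.44. None of these 4 was called without the mouse term (adjusted p = 0.136, 0.207, 0.166 and 0.185).

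Several gene groups had 0 calls by edgeR. In 28 mitosis genes none was called, though 25 estimates were above 0 and the median was 0.43: TOP2A had 551, 590 and 281 CPM in liver metastases and 477, 316 and 152 CPM in primary tumours. DNA replication (29 genes, median 0.05), the nuclear respiratory chain (23, 0.13), mitochondrially encoded genes (13, 0.17), iron handling (14, 0.14), amino acid transporters (19, −0.27) and the ATF4 and unfolded protein response (22, −0.23) gave none either. At an unadjusted p under 0.05, 11 mitosis genes passed, 5 amino acid transporters, 5 genes of the ATF4 list and 1 mitochondrially encoded gene, and none of the replication, respiratory chain and iron lists. DESeq2 called 1 mitosis gene higher, 3 amino acid transporters and 2 genes of the ATF4 list lower, and none of the other 4 lists.

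**Figure D4:**
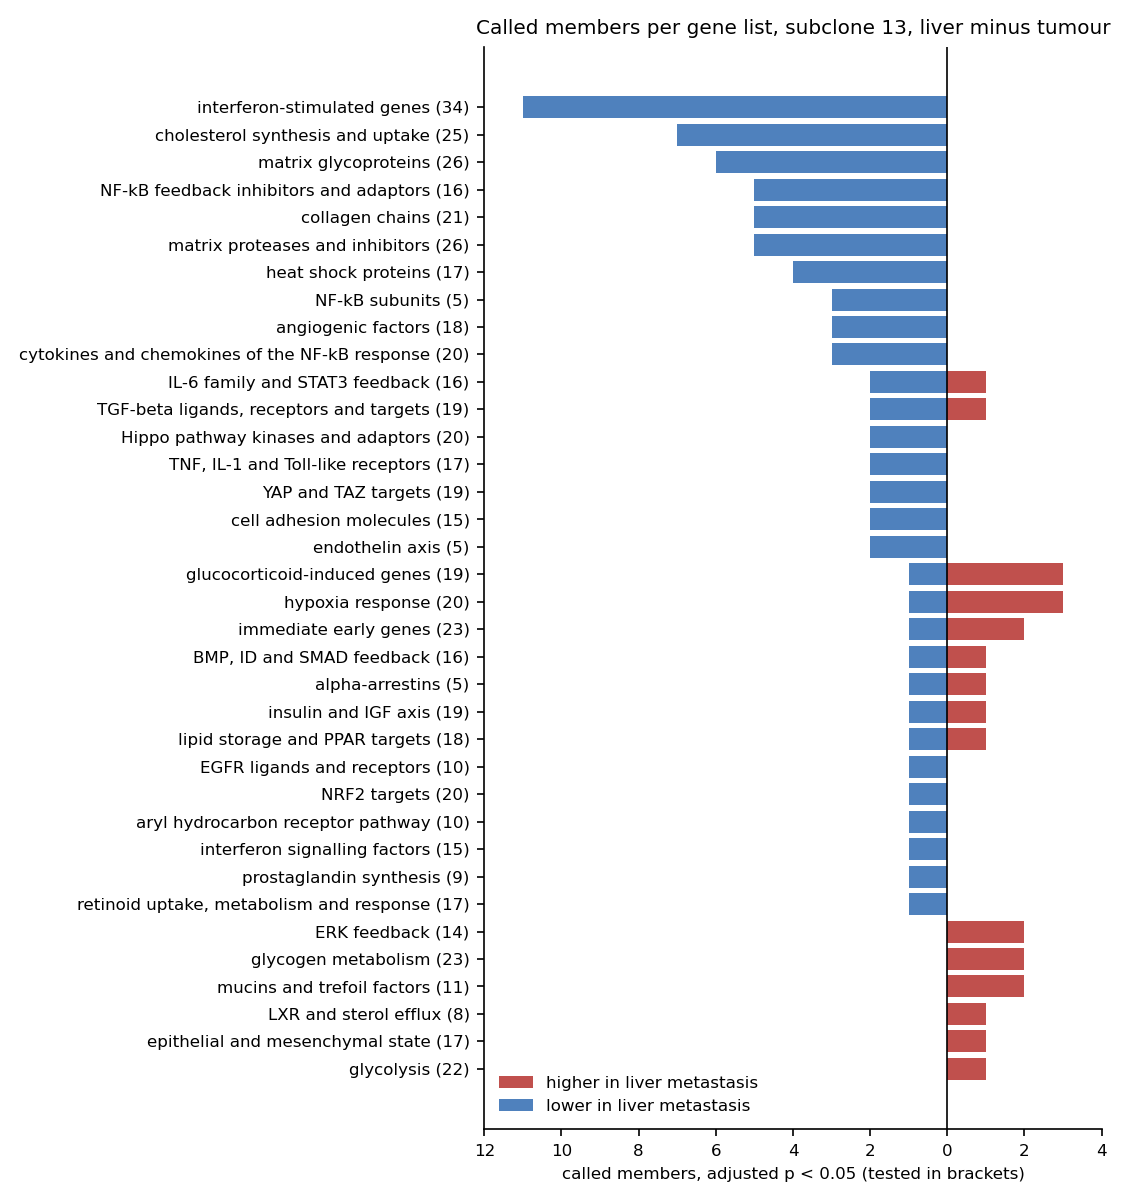
Number of members called higher (red, right of 0) and lower (blue, left of 0) in liver metastasis against primary tumour for the 36 gene lists with at least 1 called member, with members tested in brackets. Interferon-stimulated genes (11 of 34) and cholesterol genes (7 of 25) have the most lower calls, and the hypoxia and glucocorticoid lists have the most higher calls (3 each).

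A direct test against lung metastases of the same clone and mice showed where the liver stood apart from another metastatic site. Of 17418 genes 48 (0.276%) differed: 15 (0.0861%) were higher in liver metastases and 33 (0.189%) lower. CYP1B1 had the largest fall here too, with 0.203, 0.665 and 0.460 CPM in liver metastases against 25.0, 9.69 and 23.8 CPM in lung metastases (−5.71 ± 0.81, adjusted p = 0.00329, edgeR). RRAD, a small GTPase, had 27.7, 26.2 and 91.2 CPM in liver metastases and 188, 89.5 and 404 CPM in lung metastases (−2.20 ± 0.31, adjusted p = 0.00329). Other list members lower than in lung, beside those named below, were the immediate early gene IER2 (−1.37 ± 0.27, adjusted p = 0.0344), WWC1 (−1.90 ± 0.39, adjusted p = 0.0433), MAP3K8 (−2.14 ± 0.37, adjusted p = 0.0170), RELB (−1.05 ± 0.21, adjusted p = 0.0381), PTGER4 (−1.10 ± 0.20, adjusted p = 0.0223) and HMGCS1 (−1.38 ± 0.23, adjusted p = 0.009986). For SPRY1 the change from lung was 0.12 ± 0.21, for DUSP1 −0.03 ± 0.27, for ARRDC3 −0.05 ± 0.22, for ID1 −0.46 ± 0.27 and for IFIT3 −0.44 ± 0.25, and none of these passed. NFKB1 had 49.6, 45.2 and 49.5 CPM in liver metastases and 69.0, 46.1 and 61.4 CPM in lung metastases (−0.29 ± 0.17).

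RGS1, TNFRSF1B and MUC5AC differed from lung without a called change from tumour. RGS1, a regulator of G protein signalling, had 2.02, 5.14 and 4.01 CPM in liver metastases and 33.8, 48.5 and 154.7 CPM in lung metastases (−4.17 ± 0.84, adjusted p = 0.0398, edgeR). TNFRSF1B, the inducible TNF receptor, had 1.20, 1.63 and 2.30 CPM against 14.9, 8.94 and 10.7 CPM (−2.96 ± 0.61, adjusted p = 0.0433). MUC5AC, a gel-forming mucin, had 1.81, 3.39 and 6.502 CPM against 9.70, 32.7 and 29.7 CPM (−2.54 ± 0.42, adjusted p = 0.0119). Matrix genes were among those higher in liver metastases. COL1A2 had 99.0, 64.1 and 105 CPM in liver metastases and 26.1, 19.3 and 27.0 CPM in lung metastases (1.89 ± 0.38, adjusted p = 0.0377). TNC was higher by 1.03 ± 0.17 (adjusted p = 0.0123). LTBP2, which binds latent TGF-beta, was higher by 1.20 ± 0.24, and POLA1, a DNA polymerase subunit, by 0.99 ± 0.18. NOX5, a calcium-activated oxidase, had 84.4, 115 and 72.8 CPM in liver metastases and 31.6, 31.8 and 40.0 CPM in lung metastases (1.40 ± 0.29, adjusted p = 0.0445). It was higher than in tumour as well (1.23 ± 0.29, adjusted p = 0.0305). TCN1, which binds vitamin B12, was higher than in lung by 2.18 ± 0.40. PECAM1 and PTPRB, which are also expressed in endothelial cells, were higher by 1.41 ± 0.29 and 1.64 ± 0.33. Of total counts in liver metastases, PECAM1 had 14.4 to 37.2 CPM, KDR 2.80 to 3.40 CPM and TEK 1.03 to 1.35 CPM. STAB2 had 0 to 1.77 CPM, CDH5 0.567 to 0.788 CPM and VWF 0 to 0.121 CPM, and LYVE1 was at 0. These marker values are for liver metastases only, so they do not show whether endothelial markers differ from lung metastases. The part of endothelial cells in the PECAM1 and PTPRB values was not tested. Mitochondrially encoded genes were lower than in lung in 10 of 13 (median −1.39), beside a share of mitochondrial reads of 3.79%, 4.36% and 3.68% in liver metastases and 8.56%, 9.61% and 9.71% in lung metastases. The part of RNA or cell quality in this was not tested. No gene was called between the metastatic sites without the mouse term, where 792 had an unadjusted p under 0.05, and between 6 and 36 were called when a mouse or sample was left out (6 without mouse 3, 7 without mouse 2 or the lung metastasis of mouse 3).

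**Figure D5:**
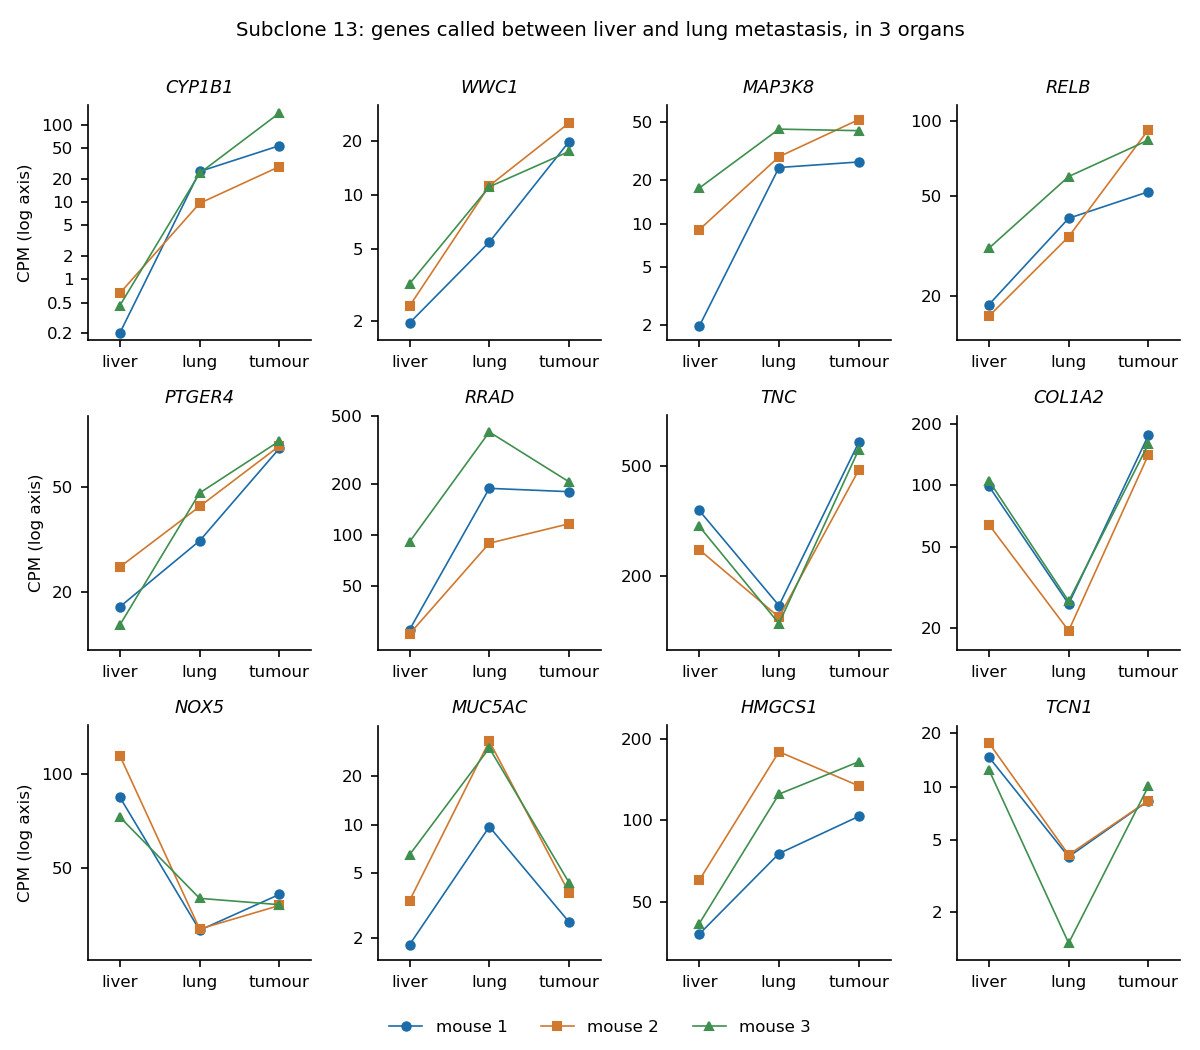
CPM (log axis) of 12 genes called between liver and lung metastasis of subclone 13, in liver metastasis, lung metastasis and primary tumour of each mouse, with lines joining the samples of 1 mouse. CYP1B1 is at 0.203 to 0.665 CPM in liver metastases, 9.69 to 25.0 CPM in lung metastases and 28.9 to 143 CPM in primary tumours, whereas COL1A2 and TNC are lowest in lung metastases.

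The change from tumour to liver was also set against that of subclone 2 in the same mice. Of 17418 genes 1 (0.00574%) differed between the subclones, while 635 had an unadjusted p under 0.05. ACTG2, smooth muscle gamma actin, had 20.4, 27.6 and 29.3 CPM in the liver metastases of subclone 13 against 15.3, 7.68 and 7.84 CPM in its primary tumours. For subclone 2 it had 0.192, 0 and 0.260 CPM in the liver metastases against 3.22, 2.23 and 3.32 CPM in the primary tumours. The difference of the changes was 5.90 ± 0.80 on the log2 scale (adjusted p = 0.008606, edgeR), and the change within subclone 13 alone did not pass (1.40 ± 0.48, adjusted p = 0.187). With the liver metastases of subclone 2 near 0, the size of the difference is uncertain. No gene was called without the mouse term, without mouse 2, without mouse 3, without the subclone 13 liver metastasis of mouse 2 or with only the groups compared. For the leading genes of subclone 13 the estimated differences were −1.48 ± 1.03 for CYP1B1, 0.43 ± 0.31 for SPRY1, −0.76 ± 0.24 for NFKB1 and −1.01 ± 0.43 for IFIT1, none of which passed.

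In mouse 1 the 3 sequencing runs of each organ gave a view of technical spread. All 30 named genes kept their direction in each of the 3 runs. They had been chosen for large changes with 1 direction in all 3 mice, and mouse 1 is the sum of these runs. Their kept direction was thus largely set by the choice. Over the runs the log2 ratio of liver metastasis over primary tumour spanned a median of 0.51, with a maximum of 2.08. Over the 3 mice the median span was 1.11.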

How the data were processed

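RNA of sorted subclone cells was sequenced with a kit that does not mark strand, so a gene and an antisense partner cannot be told apart. The deposited values are raw read counts per gene. Per the submitters' processing notes, bcl2fastq 2.15.0.4, cutadapt, STAR, featureCounts and GRCh38 were used, and their order and settings are not given in the sources used here. All 38526 gene IDs matched GENCODE release 29. Libraries of mouse 1 were summed over the 3 runs. The 18 samples of the 2 subclones and 3 organs had 11.8 to 82.2 M counts (M for mega), and 17418 genes passed edgeR's filterByExpr. edgeR 4.0.16 in R 4.3.3 fitted group and mouse to these 18 samples with TMM scaling and its quasi-likelihood test, with Benjamini-Hochberg adjustment at 0.05. The biological coefficient of variation was 0.330 with the mouse term and 0.476 without it, with 10 residual degrees of freedom. The labels' mouse number pairs samples of the same animal. Deviations of liver metastasis and primary tumour from their group means correlated at 0.191 to 0.457 over the 3 pairs. Pairs of different mice were not set beside them, so these values do not test the pairing. P-values rest on 3 mice per group.

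Named genes were the 15 largest called changes each way with 5 or more CPM in the higher organ and 1 direction in all 3 mice (5 each way in the other comparison). Ratios per mouse had 0.5 CPM added. The comparison and 46 lists of 833 genes, of which 780 were tested, were chosen with earlier results of these data known. The main fit of liver metastasis against primary tumour was run on simulated counts with known changes in genes above 5 CPM. The other comparisons and the alternatives were not run on simulated counts. Alternatives were no mouse term, RLE size factors, no filter, a filter at 1 CPM, DESeq2 1.42.0, only the groups compared, single runs of mouse 1 and left-out mice or samples. The second experiment of the series was not used here. Promoters are from RefSeq (GRCh38.p14). Results on some genes are not reported here.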

Additional observations from a re-analysis of the deposited data

Results flagged for a closer look

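ACTG2, smooth muscle gamma actin, was picked out because its change from primary tumour to liver metastasis differed between the subclones by the test of the difference itself: 5.90 on the log2 scale, subclone 13 minus subclone 2 (SE 0.80, adjusted p = 0.008606, edgeR). It was higher in the liver metastasis than in the primary tumour in all 3 mice for subclone 13, and lower in all 3 mice for subclone 2. Its levels in the liver metastases of subclone 2 were near 0 (0.192, 0 and 0.260 CPM), so the size of the difference is uncertain. The change within subclone 13 alone did not pass (adjusted p = 0.187, edgeR). The call was lost without the mouse term, without mouse 2, without mouse 3 and with only the groups compared.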

How the results depend on the processing

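Without the replicate block for mouse, 67 genes differed between liver metastasis and primary tumour (16 higher, 51 lower), against 318 with it. No filter on low counts gave 664 (164 higher, 500 lower) and DESeq2 gave 661 (197 higher, 464 lower). Leaving out a mouse or sample gave 99 to 312 in all, 17 to 111 higher and 82 to 201 lower. RLE size factors, a filter at 1 CPM, only the groups compared and single runs of mouse 1 gave 313 to 367, within 1.5 times of 318. Of the 318, 309 were called with RLE size factors, 310 with no filter, 318 with DESeq2 and 205 with only the groups compared. Liver against lung metastasis gave 48 genes, but 0 without the block (792 at an unadjusted p under 0.05, edgeR), 303 with no filter, 388 with DESeq2, 640 with only the groups compared, and 6 to 36 when a mouse or sample was left out. The difference between subclones gave 1 gene, but 0 without the block (297 at an unadjusted p under 0.05, edgeR), 121 with no filter, 24 with DESeq2, 0 with only the groups compared (507 at an unadjusted p under 0.05, edgeR), and 0 to 7 when a mouse or sample was left out. Single named and listed genes that had been called kept their direction in all 2184 recomputed values and lost their call in 576 of them. They were chosen for their calls on the same counts, so the kept direction was largely set by the choice. The cause of these shifts was not tested. The shallowest of the 6 samples, the liver metastasis of mouse 3, had 14.1 M counts and 22290 genes detected. The deepest, the liver metastasis of mouse 1, had 67.4 M counts and the fewest genes detected (19893). How depth bears on genes near 1 CPM was not tested.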

Other observations

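Genes outside the lists, chosen after their values were seen, add to the account. MDK, the growth factor midkine, had 442, 475 and 525 CPM in liver metastases and 118, 139 and 222 CPM in primary tumours (log2 fold change 1.63 ± 0.19, adjusted p = 7.961e-05, edgeR). CFP, which encodes properdin, an activator of complement, had 156, 103 and 113 CPM in liver metastases and 29.2, 29.7 and 45.8 CPM in primary tumours (1.81 ± 0.28). CFB, which encodes complement factor B, fell by 2.24 ± 0.47 with overlapping levels. PPL, periplakin, had 331, 269 and 238 CPM in liver metastases and 127, 137 and 118 CPM in primary tumours (1.13 ± 0.18), and PKP2, plakophilin 2, rose by 1.09 ± 0.18.

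MICA, MICB and ULBP2, ligands of the NK cell receptor NKG2D, fell by 0.92 ± 0.18, 0.96 ± 0.24 and 1.15 ± 0.27, CD274, which encodes PD-L1, by 0.97 ± 0.20, and TNFSF10, which encodes TRAIL, by 1.44 ± 0.30. GBP4, an interferon-induced GTPase, had 4.54, 7.74 and 4.20 CPM in liver metastases and 19.0, 38.7 and 22.5 CPM in primary tumours (−2.25 ± 0.41). HIVEP1, a zinc finger factor, had 23.8, 32.5 and 26.3 CPM in liver metastases and 138, 94.9 and 67.3 CPM in primary tumours (−1.85 ± 0.22, adjusted p = 7.961e-05, edgeR). PTX3, a soluble pattern recognition protein, had 22.9, 38.4 and 67.3 CPM in liver metastases and 203, 512 and 112 CPM in primary tumours (−2.55 ± 0.49). MT-RNR2, the large mitochondrial ribosomal RNA, had 6076, 7327 and 2147 CPM in liver metastases and 22910, 11170 and 20870 CPM in primary tumours (−1.91 ± 0.42, adjusted p = 0.0208, edgeR). The list of 13 mitochondrially encoded genes in the report holds no ribosomal RNA, and its median was 0.17 with 3 of 13 estimates below 0. The small ribosomal RNA, MT-RNR1, did not pass (−0.35 ± 0.31, adjusted p = 0.776, edgeR).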
